A study of Sus scrofa with 10 samples.

Results

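Very long genes are described here, defined as the genes whose annotated start and end in the deposited tables lie 400 kb or more apart, mitochondrial genes left out. The rule used no measured level and gave 342 genes of 35670 in all. Their median span was 544 kb, against 6.22 kb over all nuclear genes, and the longest, RBFOX1, reached 2361 kb. Of these 342 members 315 carried a gene symbol, 17 lay on chromosome X, and 305 of the 306 found in RefSeq on the same build (Sscrofa11.1) were protein-coding.

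Nuclear RNA of cardiomyocytes, the contracting muscle cells of the heart, had been sequenced from wild-type minipigs in 10 libraries of sorted material. The control group, given phosphate-buffered saline, had 5 libraries (replicates 1 to 5). The DOCA group had 2 (replicates 6 and 7), and DOCA was given together with JK07 in 3 (replicates 8 to 10). DOCA is deoxycorticosterone acetate, a steroid that acts on the mineralocorticoid receptor, and the series title names JK07 as an agonist of the receptor ERBB4. No source used here gives doses, times, ages or the heart chamber. Nor do the labels state whether each library is a separate animal, so the p-values below measure only how far these samples differ, and that spread may be technical.

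Most of the length of a very long gene is intron. RNA polymerase II needs hours to cross such a gene, so its transcription leans on elongation factors and on topoisomerases that relieve the twist of the DNA. Nuclear RNA holds many unfinished and unspliced transcripts, and the longest mammalian genes are known for neuronal adhesion and synapse genes, for the fragile-site genes that break under replication stress, and, in heart muscle, for the calcium release channel RYR2 and for dystrophin.

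Ribosomal RNA scaffolds took 77.6% to 90.8% of the counts of a library. Leaving out these and the mitochondrial genome, DOCA replicates 6 and 7 held 6.87 and 3.3 M counts (M, mega), against 8.67 to 13.9 M in the other 8 libraries. Mitochondrial genes took 0.238% and 0.0574% of all counts in replicates 6 and 7, against 0.506% to 1.76% elsewhere. These differences in depth and in mitochondrial share coincide with the DOCA group, so they and DOCA cannot be told apart in what follows. Of 15 cardiomyocyte markers 12 were matched, and MYH6, the atrial heavy chain of myosin, stood at 575 ± 38 TPM in control (SD, n = 5). TPM is the level per transcript length, scaled to the same sum in each library. Markers of other cell types were present too: in control the 15 fibroblast markers that are no members summed to 987 to 2967 CPM, the count scaled to the size of the library, against 4298 to 5218 CPM for 11 such cardiomyocyte markers.

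In control nuclei 167 of the 342 members were expressed, taken as a TPM of 1 or more in at least 4 of the 5 libraries. That is 48.8%, against 51.6% of genes spanning 200 to 400 kb, 56.4% at 100 to 200 kb, 54.3% at 50 to 100 kb, 43.9% at 10 to 50 kb and 11.8% under 10 kb. Another 75 members lay above 0 without meeting the rule, and 100 were listed at 0 in all 5 controls. The median expressed member stood at 3.69 TPM, and 25 members reached 10 TPM or more. The 12 named members with the highest control level held 35.9% of the TPM of all members. Among the 37 members of 1000 kb or more, 15 were expressed.

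**Figure D1:**
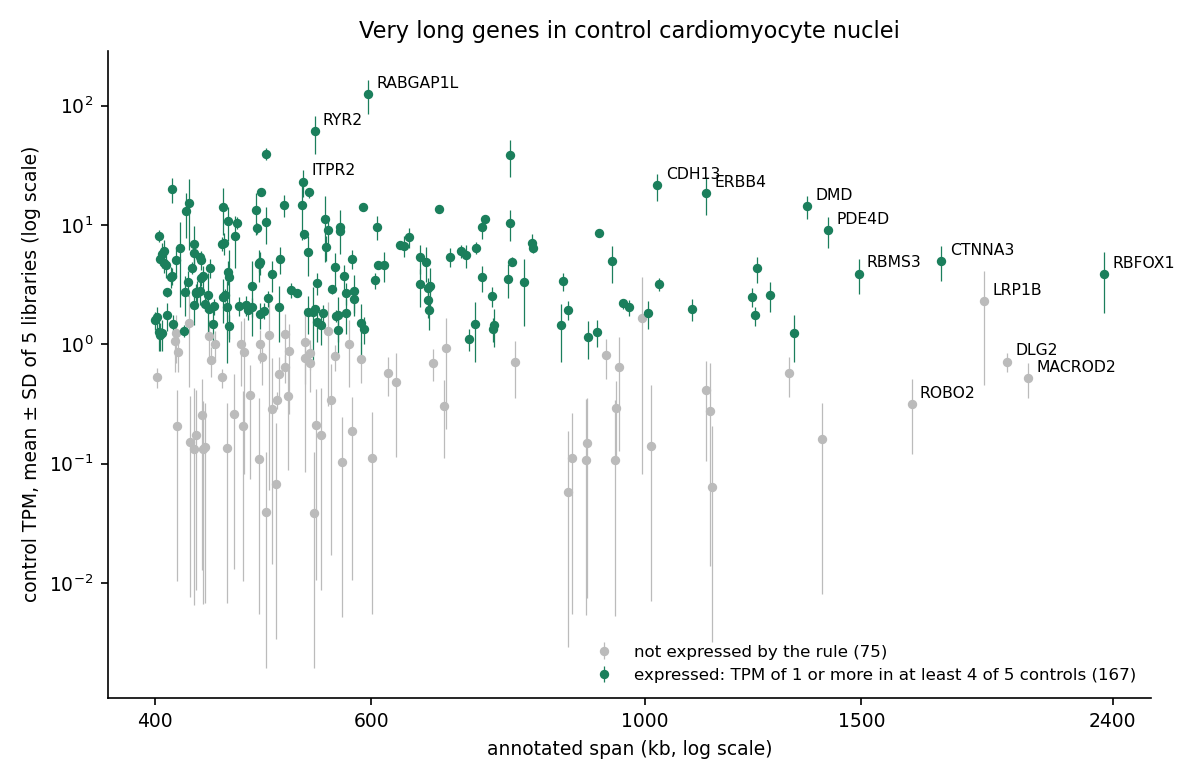
Control level of the 242 members above 0, as mean TPM of 5 control libraries (vertical, log scale, bars are SD, with lower bars cut short where they would reach 0), by annotated span in kb (horizontal, log scale). Expressed members (green) are seen across the whole range of spans, from 400 kb to RBFOX1 at 2361 kb.

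RABGAP1L, a GTPase-activating protein for Rab trafficking proteins (596 kb on chromosome 9, 116463779 to 117060053), had the highest level, 124 ± 39.5 TPM in control (SD, n = 5). RYR2, the channel through which the sarcoplasmic reticulum releases calcium at each beat (540 kb on chromosome 14, 53652485 to 54192063), followed at 61.0 ± 21.6 TPM. ITPR2, the inositol trisphosphate receptor channel of cardiomyocytes, stood at 23 ± 5.89 TPM. CDH13, a cadherin anchored by a lipid tail, was at 21.5 ± 5.47 TPM, and PCDH7, a protocadherin, at 20.03 ± 4.71 TPM. The control means from ITPR2 down to DMD lay within about 1 SD of their neighbours in this order, so ranks among them are not resolved. These were DST, a cytoskeletal linker (18.8 ± 1.27 TPM), UTRN, utrophin, the paralogue of dystrophin (18.7 ± 1.82), ERBB4, the receptor that JK07 is named to act on (18.6 ± 6.59), and VCAN, the matrix proteoglycan versican (15.2 ± 9.10). PALM2AKAP2, which holds an anchor of protein kinase A, stood at 14.8 ± 3.10 TPM, PTPRD, a receptor tyrosine phosphatase, at 14.6 ± 7.14, and DMD, dystrophin, the X-linked link between cytoskeleton and membrane, at 14.4 ± 3.18 TPM over 1356 kb.

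By function, 10 of 23 members of the list of channels, calcium handling and ankyrins were expressed. Beside RYR2 and ITPR2 these included ANK3 and ANK2, adaptors that place channels in the membrane (10.4 ± 3.06 and 9.69 ± 2.19 TPM), CACNB2, the beta subunit of the L-type calcium channel (8.11 ± 3.75 TPM), and CACNA2D1, an alpha-2-delta subunit (4.77 ± 1.45 TPM). Of the cytoskeleton and junction list 15 of 20 were expressed, among them FHOD3, a formin that organises sarcomeric actin (11.2 ± 6.35 TPM), and CTNNA3, alpha-T-catenin of the intercalated disc (5.01 ± 1.62 TPM over 1742 kb). The receptor, kinase and phosphodiesterase list had 17 of 24 expressed, with PDE4D and PDE4B, which break down cyclic AMP, at 9.06 ± 2.64 and 9.05 ± 2.79 TPM. Of the transcription and chromatin regulators 20 of 27 were expressed, led by NFIA (14.1 ± 1.06 TPM) and FOXP1 (8.39 ± 0.705 TPM). Of the fragile-site, metabolic and transport list 21 of 40 were expressed, of the matrix list 7 of 11 and of the RNA-binding list 5 of 8.

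The list of neuronal adhesion, synapse and axon guidance genes was the largest, with 67 members, and 14 of these were expressed in control. Listed at 0 in all controls were 32, among them the axon guidance receptor DCC, the glutamate receptor genes GRIN2B, GRM5 and GRIK2, and CSMD1. The expressed ones included NAV2, a microtubule-binding guidance protein (6.41 ± 0.593 TPM), PLXDC2 (6.05 ± 1.43 TPM), RIMS1, a scaffold of the presynaptic active zone (3.65 ± 2.54 TPM), and SLIT3, a secreted ligand of ROBO receptors (2.98 ± 0.615 TPM). ROBO2, a receptor of SLIT proteins spanning 1648 kb, stood at 0.317 ± 0.196 TPM and did not meet the rule.

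The controls differed among themselves. The median coefficient of variation of an expressed member over the 5 controls was 22.6%, from 4.89% for DPYD, the first enzyme of pyrimidine breakdown, to 65.5% for RIMS1. Control replicate 2 was the highest control for 73 of the 167 expressed members and replicate 1 the lowest for 65. RIMS1 read 4.64, 27.3, 10.7, 13.9 and 9.02 CPM in controls 1 to 5, DTNA, a dystrobrevin, 10.5, 52.8, 20.7, 27.9 and 16.9 CPM, and RYR2 615, 969, 541, 640 and 426 CPM, so replicate 2 led in each. Replicate 5 instead led for VCAN, at 188 CPM against 57.6 to 124 in the other controls, and for HMCN1, a basement membrane protein, at 198 CPM against 77.1 to 134. In that library the fibroblast markers summed to 2967 CPM, against 987 to 1765 CPM in the other controls. The part of the fibroblast markers in these levels was not tested.

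Comparing DOCA with control, which addresses how transcription differed after the steroid alone, 54 members were lower and 8 higher of the 241 that passed the filter on low counts, in edgeR's quasi-likelihood test with Benjamini-Hochberg adjustment over all 17251 genes tested. That is 22.4% lower and 3.32% higher, beside a background over all genes of 19.7% lower and 5.73% higher. The median log2 change of the tested members was -0.67, against -0.63 over all genes tested. Thus the share of lower members lay near that of all genes. The split was 13 higher and 37 lower with upper quartile scaling, where all genes gave 1523 higher and 2868 lower. Voom with quality weights for each library called 2 members, VPS13B and LRBA, both lower, beside 67 higher and 94 lower over all genes. Of the other 101 members, 93 were at 0 in all 10 libraries. With only nuclear RNA of bulk samples, fewer nuclei of a type and less RNA in each cannot be told apart.

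The 54 lower members fall into 23 that were listed at 0 in both DOCA libraries and 31 that were above 0 in at least 1. Among the 31, the DOCA mean lay at 20.5% to 63.1% of the control mean, with a median of 41.6%. The mean of the DOCA plus JK07 libraries for the same genes lay at 77.1% to 124% of control, with a median of 96.2%. These genes were picked by their control and DOCA values. Over all genes tested the median log2 change of DOCA plus JK07 against control was -0.00055, so levels near control are not particular to them.

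Among the lower members above 0 in DOCA, the largest fitted changes belonged to CDKAL1, RIMS1, BBS9, STAG1, SCAPER, PLCB4, VPS13B and ARHGAP24. CDKAL1, an enzyme that modifies a transfer RNA (716 kb on chromosome 7, 15910666 to 16626276), read 6.11, 9.08, 6.11, 8.71 and 7.25 CPM in the controls and 1.82 and 1.24 CPM in DOCA. Its log2 change was -2.28 (SE 0.27, adjusted p = 0.000227). VPS13B, a lipid transfer protein of the Golgi (729 kb on chromosome 4, 37090936 to 37820419), read 59.8, 51.6, 49.8, 57.8 and 57.9 CPM in the controls and 13.7 and 21.9 CPM in DOCA, and fell by 1.64 on the log2 scale (SE 0.24, adjusted p = 0.000939). PLCB4, a phospholipase C that acts below G proteins, read 12.5 to 19 CPM in the controls with a median of 15.5, and 4.22 and 5.08 CPM in DOCA (-1.73 on the log2 scale, SE 0.20, adjusted p = 0.000182). For each of these genes both DOCA values lay under all 5 control values.

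STAG1, a subunit of the cohesin ring, read 21.6, 14.6, 16.7, 13.4 and 17.0 CPM in the controls and 3.02 and 5.92 CPM in DOCA (log2 change -1.90). BBS9, a subunit of the BBSome that carries cargo to cilia, fell by 1.93 on the log2 scale, from 9.06 ± 1.56 CPM (SD, n = 5) to 1.92 and 2.84 CPM. SCAPER, a cyclin A partner of the endoplasmic reticulum, fell by 1.84, from 15.9 ± 1.61 CPM to 6.19 and 2.68 CPM. ARHGAP24, which switches off Rac, fell by 1.6, from 4.53 ± 0.826 CPM to 1.13 and 1.87 CPM. RIMS1 was at 3.51 and 2.98 CPM in DOCA (-2.01 on the log2 scale, SE 0.63, adjusted p = 0.0455), under the lowest control at 4.64 CPM. Its call did not hold with upper quartile scaling (adjusted p = 0.0673) or with the libraries of the 2 groups only (0.0873). It was also lost without any 1 JK07 library (0.0599 to 0.0711) and without control 3, 4 or 5 (0.0557 to 0.0828). Where only 1 DOCA library is left, the log2 change of RIMS1 alone is given: -2.14 without replicate 6 and -1.91 without replicate 7.

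Of 17 tested members of the cytoskeleton and junction list 2 were lower, UTRN and CTNNA3, and 1 was higher, PARD3B, a share of lower calls under the 19.7% of all genes. THRB, of the transcription list, the thyroid hormone receptor beta, read 15.3, 18.1, 15.3, 17.1 and 9.76 CPM in the controls and 7.52 and 4.48 CPM in DOCA (-1.33 on the log2 scale, SE 0.29, adjusted p = 0.00962). CTNNA3 read 22.7 to 46.3 CPM in the controls and 17.9 and 9.77 CPM in DOCA (-1.20 on the log2 scale, SE 0.34, adjusted p = 0.0326), and UTRN read 108 to 138 CPM in the controls and 83.8 and 74.4 CPM in DOCA (-0.69 on the log2 scale, SE 0.19, adjusted p = 0.0272). Neither CTNNA3 nor UTRN passed with upper quartile scaling (adjusted p = 0.0564 and 0.118). UTRN also missed without JK07 replicate 8 (0.0528) and without control 1, 2, 3 or 4 (0.0562 to 0.0727). CTNNA3 missed without JK07 replicate 8 or 10 (0.0531 and 0.0517), without control 4 (0.0693) and with the libraries of the 2 groups only (0.0641). Without replicate 7 none of the 3 passed (0.154 for CTNNA3, 0.0997 for UTRN and 0.0523 for THRB). In each of these 3 genes both DOCA libraries lay under every control.

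In the transcription list 8 of 24 tested members were lower (33.3%, beside 19.7% of all genes), 4 of them at 0 in both DOCA libraries. In that list 1, AUTS2, was higher (4.17%, beside 5.73% of all genes), with a list median of -0.61 against -0.63 over all genes. SOX6, a factor of muscle fibre and red cell development, fell by 1.28 on the log2 scale, FOXP1, a forkhead repressor, by 1.16, and NFIA by 0.78. NFIA read 26.9 to 30.3 CPM in the controls and 13.5 and 20.2 CPM in DOCA, and its call was lost without replicate 6 (adjusted p = 0.0917) and with upper quartile scaling (0.0944). Of the RNA-binding list 1 of 6 was lower (16.7%, under the share of all genes). That gene, LRBA, is known as a large scaffold of vesicle traffic and not as an RNA-binding protein. It went from 35.9 ± 3.90 CPM to 10.4 and 17.9 CPM (log2 change -1.35, SE 0.23, adjusted p = 0.00241). RBMS3 of that list read 10.5 to 21.2 CPM in the controls, 2.12 in replicate 6 and 19.5 in replicate 7. These DOCA libraries thus lay on either side of the control range's lower end.

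Of the fragile-site, metabolic and transport list 8 of 30 tested members were lower and 0 higher, beside 19.7% lower and 5.73% higher over all genes. DPYD, the member with the smallest spread among the controls, read 13.5 to 15.5 CPM there and 7.27 and 8.06 CPM in DOCA (-0.91 on the log2 scale, SE 0.15, adjusted p = 0.00192). NBEA, a trafficking protein related to LRBA, went from 45.7 ± 8.61 CPM to 23.7 and 17.6 CPM (log2 change -1.15). DOCK4, an activator of Rac, read 12.1 to 17.3 CPM in the controls and 7.09 and 9.03 CPM in DOCA (-0.88 on the log2 scale, SE 0.20, adjusted p = 0.0121). Without replicate 6 it did not pass (adjusted p = 0.0746). The neuronal list had 7 of 36 lower and 1 higher, near the share of all genes, and 5 of the 7 were at 0 in both DOCA libraries. The receptor and kinase list had 3 of 20 lower, under the share of all genes.

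In the channel list 1 of 14 was lower, beside 19.7% of all genes: CACNA1D, a pore subunit of the L-type calcium channel that was at 0 in both DOCA libraries after 1.78 to 11.6 CPM in the controls. RYR2 read 674 and 364 CPM in DOCA beside 426 to 969 CPM in the controls (log2 change -0.30, SE 0.36, adjusted p = 0.568), so the groups overlapped. CACNA2D1 read 15.9 and 9.94 CPM beside 18.2 to 34.1 CPM in the controls and did not pass (log2 change -0.88, adjusted p = 0.0659), though it did with DESeq2 (0.0481). In the matrix list 0 of 8 passed in edgeR, with a list median of -0.93 against -0.63 over all genes. VCAN read 11.08 CPM in replicate 6 and 65.6 in replicate 7, and HMCN1 30.7 and 90.6 CPM. Both genes passed, as lower, without replicate 7 (adjusted p = 0.0245 and 0.0198) and on log2(TPM + 1) with limma (0.0350 and 0.0234). The fibroblast marker sums of these libraries were 1005 and 3136 CPM, and their part in these values was not tested.

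The 5 longest members were RBFOX1, MACROD2, DLG2, CTNNA3 and LRP1B. RBFOX1, a splicing regulator of heart, muscle and brain, stood at 3.87 ± 2.05 TPM in control and read 2.13 to 8.81 CPM there, 4.15 and 2.88 CPM in DOCA and 5.11 to 9.62 CPM with JK07. It did not pass in DOCA against control (log2 change -0.52, adjusted p = 0.471). MACROD2, an enzyme that removes ADP-ribose, spanned 2048 kb and read 0.342 to 0.807 CPM in the controls and 0.563 and 0.87 CPM in DOCA, so its ranges overlapped. LRP1B, an endocytic receptor of 1886 kb, read 8.62, 49.9, 20.1, 30.4 and 6.69 CPM in the controls, 7.91 and 0 CPM in DOCA and 11.8 to 32.2 CPM with JK07, with the widest spread of these 5 in control.

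Some members missed the threshold although their groups did not overlap. DGKB, a diacylglycerol kinase, read 13.3 to 25.9 CPM in the controls and 7.01 and 5.79 CPM in DOCA (-1.43 on the log2 scale, SE 0.56, adjusted p = 0.102), and passed in DESeq2 (0.0461). THSD4, a protein of elastic fibres, read 3.06 to 8.49 CPM in the controls and 16.5 and 16 CPM in DOCA (1.41 on the log2 scale, adjusted p = 0.0575), and passed in DESeq2 (0.0159). TENM3, a teneurin adhesion protein, did pass, from 14.7 to 23.6 CPM in the controls to 13.1 and 11.7 CPM in DOCA (-0.67 on the log2 scale, adjusted p = 0.0389). It missed with upper quartile scaling (0.153), thinned counts (0.0659) and the libraries of the 2 groups only (0.0760). It also missed without any 1 JK07 library (0.0535 to 0.0720) and without control 2, 3, 4 or 5 (0.0597 to 0.0954). With only 1 DOCA library left, its log2 change alone is given: -0.75 without replicate 6 and -0.59 without replicate 7.

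ERBB4 read 34.1, 78.1, 54.0, 50.6 and 40.1 CPM in the controls, 34.5 and 19.8 CPM in DOCA, and 53.7, 25.9 and 53.8 CPM in DOCA plus JK07. The ranges overlapped. Its log2 change was -0.92 in DOCA against control (SE 0.42, adjusted p = 0.148) and 0.71 in DOCA plus JK07 against DOCA (SE 0.44, adjusted p = 0.31), and neither passed in edgeR. On log2(TPM + 1) values with limma the former passed (adjusted p = 0.0331).

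The 8 higher members included AUTS2, a regulator of transcription spanning 1229 kb on chromosome 3 (13565281 to 14794365). It read 3.90, 3.39, 5.82, 5.17 and 5.38 CPM in the controls and 13.7 and 8.70 CPM in DOCA (1.24 on the log2 scale, SE 0.26, adjusted p = 0.008). PARD3B, a cell polarity protein of 1028 kb, read 9.91 to 13.5 CPM in the controls and 20.8 and 17.1 CPM in DOCA (0.73 on the log2 scale, SE 0.16, adjusted p = 0.0097). CREB5, a transcription factor of the CREB family, read 6.85 to 15.0 CPM in the controls and 43.3 and 26.6 CPM in DOCA (1.6 on the log2 scale, SE 0.38, adjusted p = 0.0138). In each of these both DOCA libraries lay above all controls.

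SLIT3 read 14.2, 10.3, 20.8, 18.8 and 15.9 CPM in the controls and 34.2 and 31.8 CPM in DOCA, and rose by 1.05 on the log2 scale (SE 0.25, adjusted p = 0.0149). SCHIP1, a partner of the tumour suppressor merlin, reached 51.9 CPM in replicate 6 but 16.4 in replicate 7, beside 12 to 14.0 CPM in the controls. PCSK5, a protease that matures secreted precursors, rose by a log2 change of 1.37, MCC, an inhibitor of Wnt signalling, by 0.73 and TRAPPC9, of a vesicle tethering complex, by 0.68. None of the 8 passed without replicate 6, where the adjusted p-values ran from 0.0613 for TRAPPC9 to 0.444 for SCHIP1. On log2(TPM + 1) with limma 7 of the 8, all but CREB5, did not pass, among them AUTS2 (0.47, adjusted p = 0.134), SLIT3 (0.43, 0.346) and PARD3B (0.15, 0.722). MCC and TRAPPC9 also failed in 8 and 7 of the 10 fits without 1 library.

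**Figure D2:**
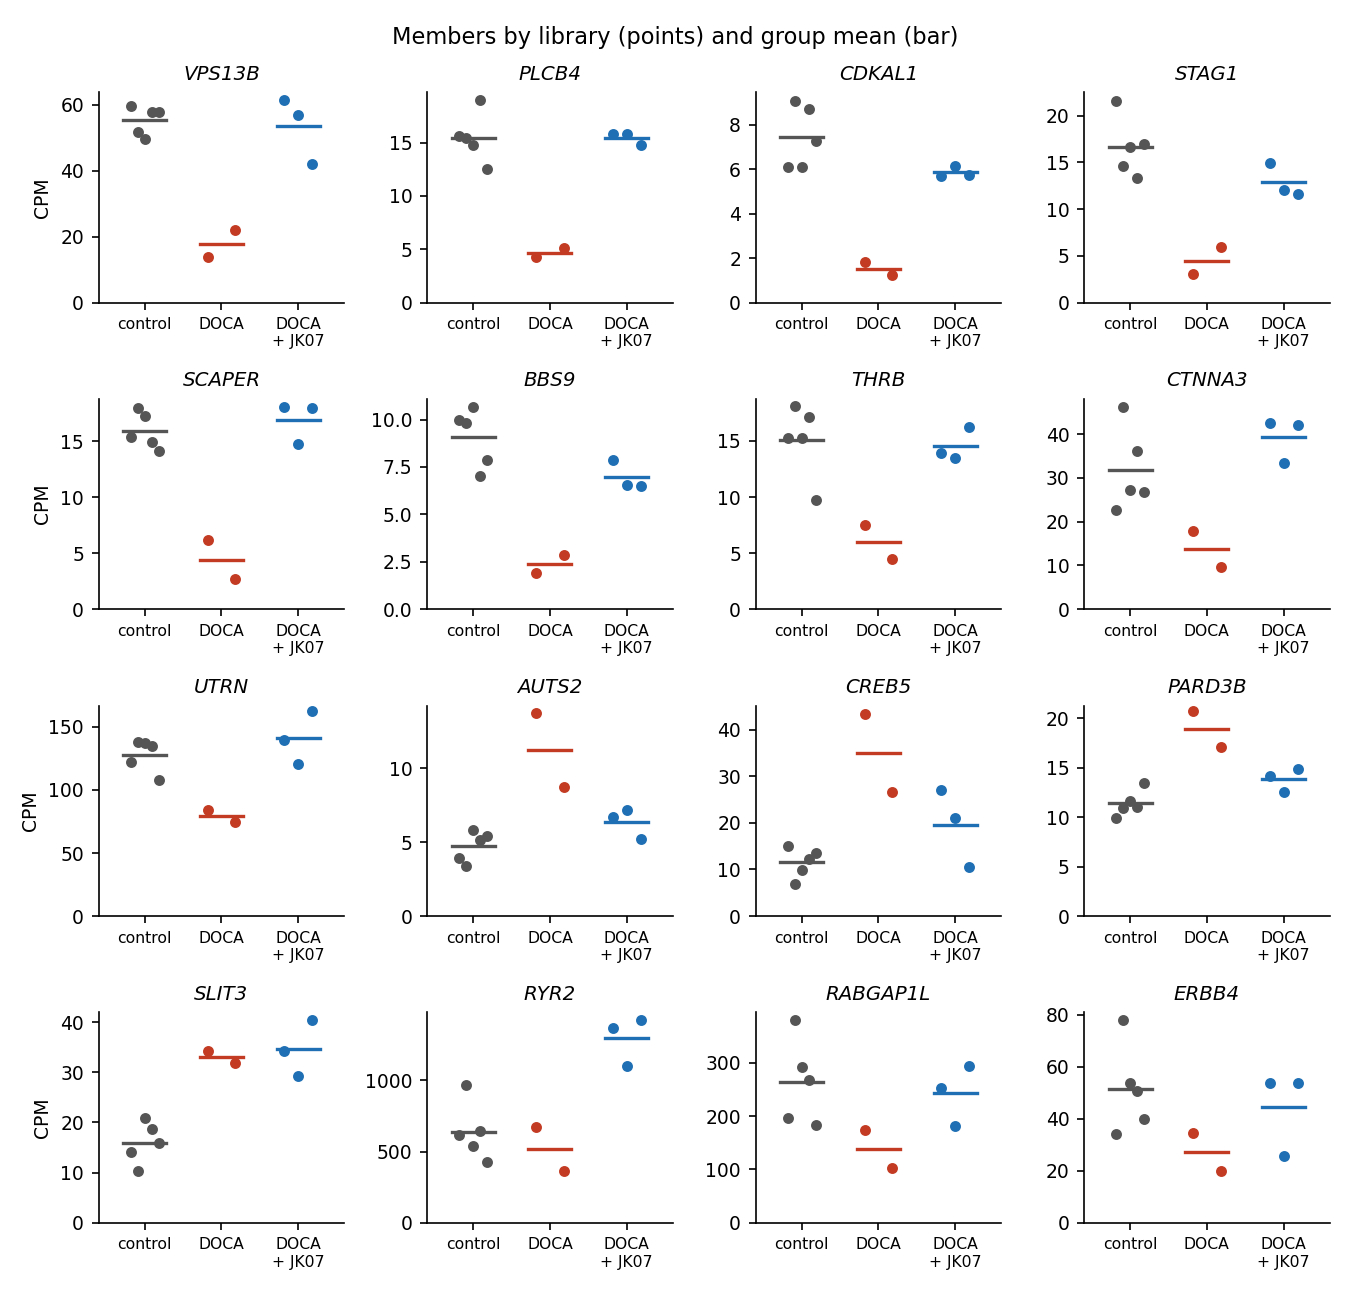
CPM of 16 members in each library (points) with the group mean (bar), each panel with its own vertical axis from 0. The 9 genes from VPS13B to UTRN read lower in both DOCA libraries than in all controls, the 4 from AUTS2 to SLIT3 read higher, and the ranges of ERBB4 overlap.

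The 23 lower members at 0 in both DOCA libraries are a different case, since their fitted fold changes have no size that can be read. The highest in control was ENSSSCG00000052253, an unnamed gene of 448 kb on chromosome 13, which read 370, 344, 295, 193 and 233 CPM in the controls, 0 in both DOCA libraries, and 301, 236 and 125 CPM in DOCA plus JK07. The count it was given per unit of read coverage implied an exon length of 441 kb, nearly its whole span, so its coverage was thin despite the count. At its control level a coverage of 1.83 and 1.40 would have been reached in replicates 6 and 7. KLF12, a repressor of transcription, stood at 7.27 ± 1.23 CPM in control (SD, n = 5), CEP112, a centrosome protein, at 6.20 ± 0.698, FOXP2, a forkhead factor, at 5.31 ± 3.82, and TENM1, a teneurin, at 4.82 ± 2.58 CPM, each with 0 in both DOCA libraries. DLG2, a synaptic scaffold of 1970 kb, was at 1.48 to 2.35 CPM in the controls and at 0 in both.

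Of the 23, a coverage under 1 was expected at the control level in both DOCA libraries for 14 and in 1 of them for 1. For the other 8 it was 1 or more in both, and 2 or more in both for 0. Among the 203 members above 0 in all 5 controls, 39 were at 0 in replicate 6 and 39 in replicate 7, or 19.2% each, and 24 of them were at 0 in both. Shorter genes above 0 in all controls were at 0 in 21.5% and 25.5%. In the DOCA plus JK07 libraries 4, 4 and 5 of the 203 members were at 0. Where a coverage under 1 was expected, 16 of 63 members (25.4%) were at 0 in replicate 6 and 25 of 75 (33.3%) in replicate 7, against 50.6% and 59.3% of shorter genes. At an expected coverage of 1 to 2, 16 of 29 members (55.2%) were at 0 in replicate 6 and 9 of 28 (32.1%) in replicate 7, and at 4 or more 0 of 78 and 1 of 64. Of shorter genes, 44.6% and 40.3% were at 0 in replicates 6 and 7 at an expected coverage of 1 to 2. At 4 or more it was 2.53% and 2.64%. The share of members at 0 was thus highest at 1 to 2 in replicate 6 and under 1 in replicate 7. For shorter genes it was highest under 1 in both libraries. Of the coverage values above 0, 26.0% of the members' lay under 1, against 3.96% over all genes. That the zeros come from a coverage limit in the authors' processing was not tested.

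**Figure D3:**
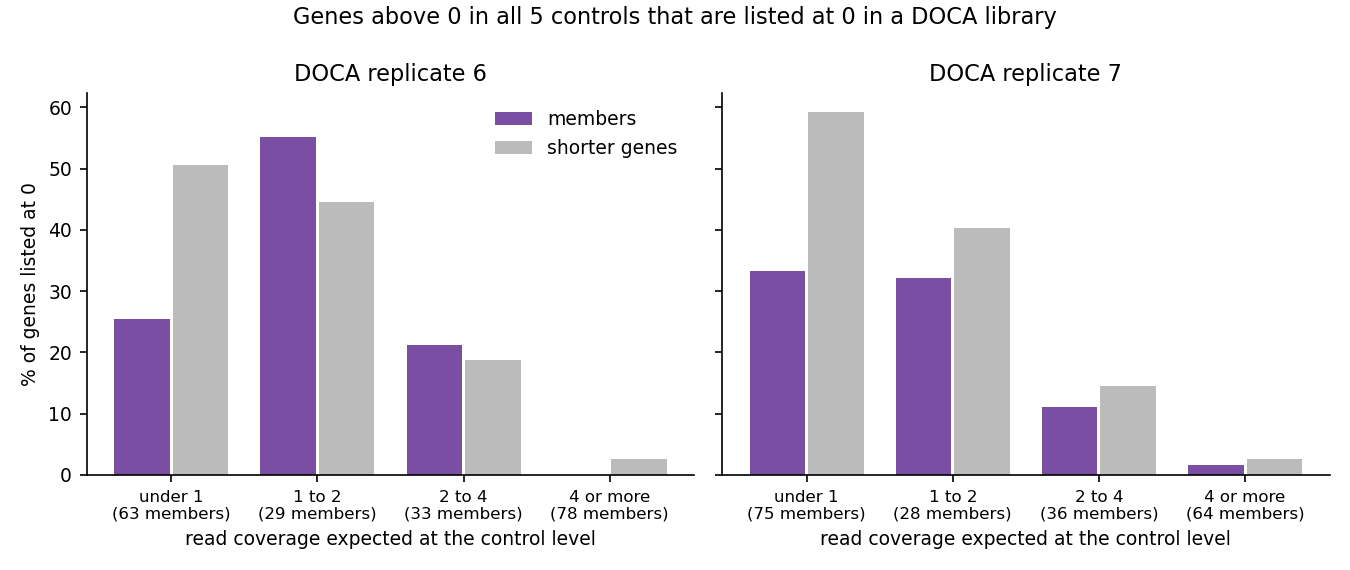
Percentage of genes listed at 0 in each DOCA library (vertical), by the read coverage expected there had the gene kept its control level (horizontal), for members and shorter genes that were above 0 in all 5 controls. The share of members at 0 is highest at an expected coverage of 1 to 2 in replicate 6 (55.2%) and under 1 in replicate 7 (33.3%). In both libraries it is lowest at 4 or more. For shorter genes it is highest under 1 in both libraries.

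Shorter genes of like abundance were those under 400 kb in the same bins of mean log2 CPM over all 10 libraries, weighted to the members' numbers in each bin. In DOCA against control the median log2 change was -0.67 for members and -0.36 for these genes, a difference of -0.31. Lower were 22.4% of members and 19.4% of the shorter genes, and higher 3.32% and 8.56%. A difference in medians was also taken for each control against the mean of the controls, on log2(CPM + 0.5) values. Its SD over the 5 controls was 0.125. The -0.31 comes from fitted changes, so it cannot be read against that SD. On log2(CPM + 0.5) values at 4 CPM or more the difference was -0.24 and -0.21 in DOCA replicates 6 and 7. Among members above 0 in both groups the medians were -0.33 and -0.10 (188 members).

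By abundance, 18.5% of 54 members under 1 CPM were lower against 21.6% of shorter genes, and 72.2% against 63.8% were at 0 in both DOCA libraries, with median control coverages of 0.584 and 1.42. At 1 to 4 CPM 28.3% of 46 members were lower against 16.8% of shorter genes, and 26.1% against 12.3% were at 0 in both DOCA libraries. In that range the median control coverage was 1.89 for members and 4.52 for shorter genes. At 4 to 16 CPM 21.3% of 80 members were lower against 19.6% of shorter genes, and at 16 CPM or more 23% of 61 against 20.2%.

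**Figure D4:**
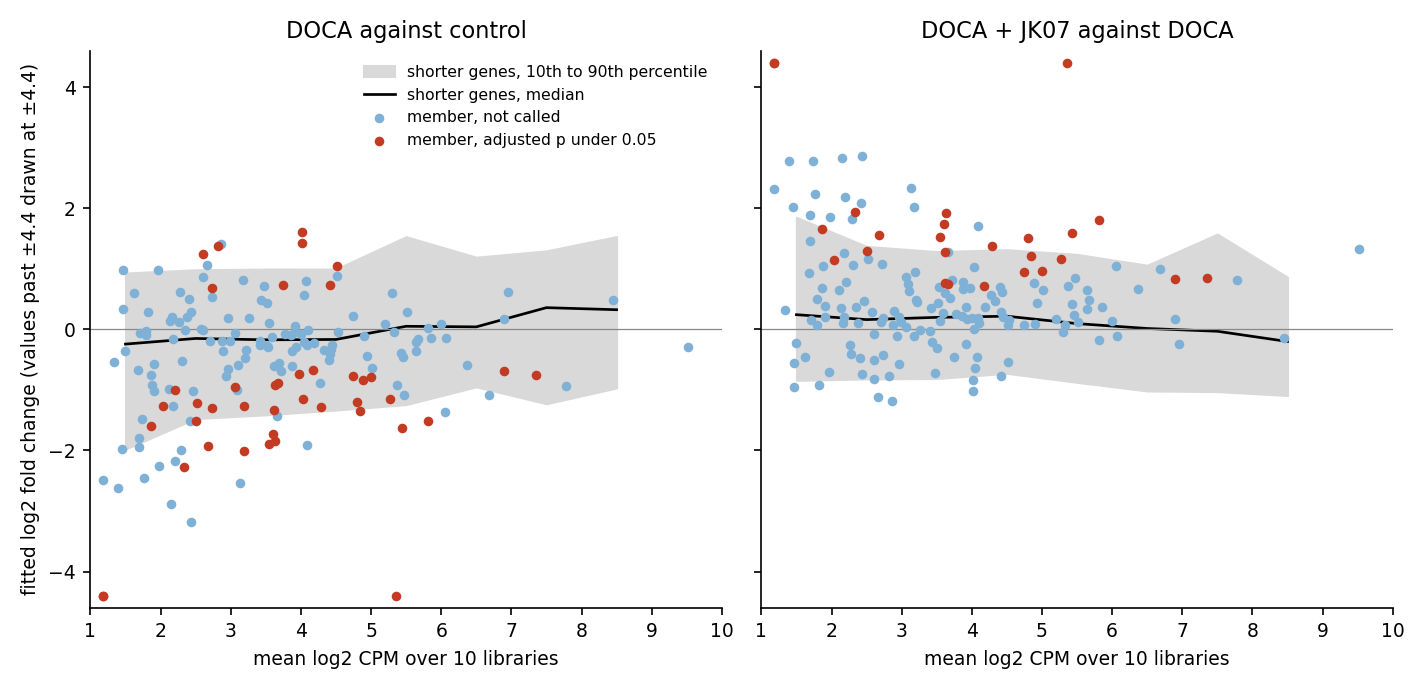
Fitted log2 fold change (vertical) by mean log2 CPM over 10 libraries (horizontal, from 1 upward), for members (points, red where the adjusted p was under 0.05) and for shorter genes (black line, median of bins 1 wide, and grey band, 10th to 90th percentile). Most members lie within the band of the shorter genes in both comparisons.

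The members were also set beside each class of shorter span. At 4 CPM or more, where 1 of the 141 members was at 0 in both DOCA libraries, the median log2 change in DOCA against control was -0.33 for members, -0.37 at 200 to 400 kb, -0.40 at 100 to 200 kb, -0.42 at 50 to 100 kb, 0.05 at 10 to 50 kb and 0.07 under 10 kb. Lower were 22% of members, 26.4%, 27.0% and 28.9% of the 3 classes from 400 down to 50 kb, and 14.9% and 12.5% of those under 50 kb. The members' median and their share of lower genes thus lay between those of the 3 classes over 50 kb and those of the classes under 50 kb. Across the 189 members above 0 in a DOCA library, span and log2 change had a Pearson r of -0.038, a description over genes that share the same libraries.

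**Figure D5:**
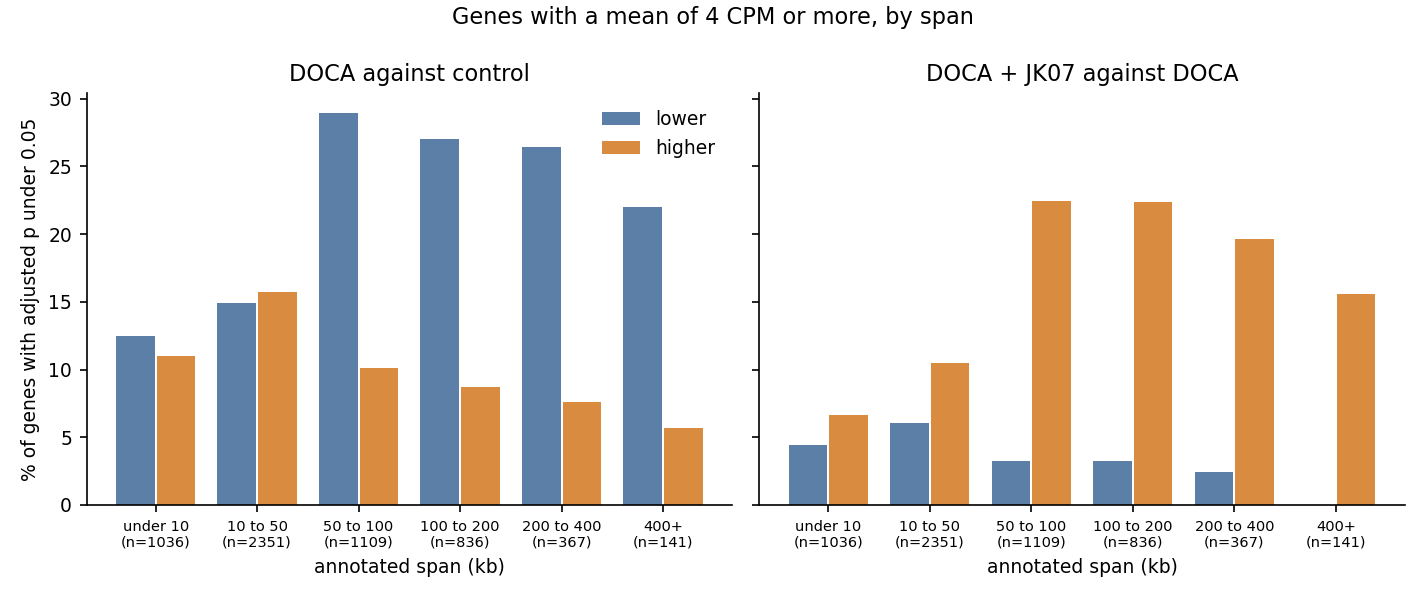
Percentage of genes lower (blue) or higher (orange) at an adjusted p under 0.05 (vertical) in each class of annotated span in kb (horizontal), among genes with a mean of 4 CPM or more, with the number of genes in brackets. The share of lower genes in DOCA is highest at 50 to 100 kb (28.9%) and is 22% for the members.

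Library by library, the same 141 members had a median log2 deviation from the control mean of -0.33 in replicate 6 and -0.45 in replicate 7, beside -0.09 and -0.24 for shorter genes of like abundance. The difference was -0.24 and -0.21 in these libraries, from -0.17 to 0.17 in the 5 controls, and from -0.12 to 0.11 in the 3 JK07 libraries. Both DOCA libraries thus lay below the range of the controls, by little against control 1.

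As a share of the counts outside ribosomal scaffolds and the mitochondrial genome, members took 3.31%, 4.04%, 3.64%, 3.69% and 3.42% in the controls, 2.49% and 2.99% in DOCA, and 3.88%, 3.52% and 4.14% in DOCA plus JK07. Both DOCA shares lay under all others. Group means were 3.62 ± 0.282% (SD, n = 5), 2.74 ± 0.354% (n = 2) and 3.84 ± 0.309% (n = 3). RYR2 alone made up 9.2% to 15.9% of the members' counts in the controls, 15.4% and 11% in DOCA and 20.7% to 22.9% in DOCA plus JK07. Without RYR2 and RABGAP1L the shares were 2.72% to 3.14% in the controls, 2.01% and 2.57% in DOCA and 2.67% to 2.99% in DOCA plus JK07.

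DOCA plus JK07 against DOCA addresses what JK07 added to the steroid, and it shares the DOCA libraries with the comparison above, so the 2 sets of values are not independent. In it 41 members were higher and 0 lower of 241 (17.0% higher), beside a background of 14.7% higher and 2.25% lower in edgeR over all genes. At an unadjusted p under 0.05, 66 members were higher and 5 lower. The share of all genes at that threshold was not taken here, so these counts describe no trait of the members. Of the 41, 19 were at 0 in both DOCA libraries. Upper quartile scaling gave 33 higher and 4 lower, beside 2095 and 752 over all genes. Voom with quality weights called 0 members, beside 1 gene higher and 4 lower over all genes. The median log2 change was 0.63 for members, 0.55 over all genes and 0.35 for shorter genes of like abundance, of which 14.5% were higher and 3.07% lower. At 4 CPM or more 15.6% of members were higher, against 19.6% to 22.5% of the 3 classes from 50 to 400 kb.

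CDKAL1 read 5.70, 6.13 and 5.74 CPM with JK07, where DOCA alone gave 1.82 and 1.24 CPM (1.93 on the log2 scale, SE 0.28, adjusted p = 0.000812). PLCB4 read 15.8, 15.8 and 14.7 CPM with JK07 (log2 change 1.73, SE 0.21, adjusted p = 0.000264), with a mean of 15.5 ± 0.622 CPM (SD, n = 3) beside 15.5 ± 2.33 in control. SCAPER read 18, 14.7 and 17.9 CPM (log2 change 1.93), VPS13B 61.5, 57.0 and 42.0 CPM (1.59) and ARHGAP24 5.00, 4.001 and 5.15 CPM (1.66). In these 5 genes all 3 JK07 libraries lay above both DOCA libraries. With the libraries of the 2 groups only, 30 members were higher and 0 lower, beside 2255 and 112 of all 15773 genes tested there. SCAPER, VPS13B and ARHGAP24 did not pass in that fit (adjusted p = 0.0542, 0.0589 and 0.0715).

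BBS9 and STAG1 read 6.52 to 7.87 and 11.6 to 14.9 CPM with JK07, log2 changes of 1.55 and 1.53 from DOCA, and STAG1 did not pass with the libraries of the 2 groups only (adjusted p = 0.0855). ENSSSCG00000052612, an unnamed gene of 778 kb on chromosome X (28525327 to 29303291) and 38.3 ± 12.8 TPM in control, read 27.9 and 18.9 CPM in DOCA and 98.7, 60.3 and 87.5 CPM with JK07 (log2 change 1.81, SE 0.39, adjusted p = 0.0109). Its call was lost without replicate 7 (adjusted p = 0.0568). CTNNA3 read 42.6, 33.4 and 42.0 CPM with JK07 (log2 change 1.51, SE 0.37, adjusted p = 0.0202), UTRN 139, 121 and 163 CPM (0.83, adjusted p = 0.0206), and THRB 13.9, 13.5 and 16.3 CPM (1.28, adjusted p = 0.0194).

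RYR2 read 1368, 1099 and 1424 CPM with JK07, above both DOCA libraries and above all controls. It passed neither test: the log2 change was 1.32 from DOCA (SE 0.40, adjusted p = 0.0542) and 1.02 from control (SE 0.30, adjusted p = 1). The 8 members higher in DOCA had log2 changes from -1.02 (SCHIP1) to 0.07 (SLIT3) with JK07 against DOCA, and 0 of them passed. SLIT3 read 34.3, 29.2 and 40.5 CPM with JK07, all above the highest control at 20.8 CPM.

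DOCA plus JK07 against control gave 0 members higher and 0 lower in edgeR, and over all genes tested the background was 0% in each direction too. At an unadjusted p under 0.05, 5 members were higher and 4 lower, beside a background of 2.68% higher and 1.98% lower. DESeq2 called 1 member higher and 0 lower, with 51 and 65 genes over the whole table, and limma on log2(TPM + 1) called 0 members. The median log2 change was -0.01 for members and 0.02 for shorter genes of like abundance. A p that misses the threshold does not show that these groups are alike.

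The machinery of elongation and of topoisomerases was listed without regard to span, and 58 of its 59 genes were tested in DOCA against control. Of these 15 were lower (25.9%) and 8 higher (13.8%), beside 19.7% and 5.73% of all genes. The median log2 change was -0.20 against -0.63 over all genes. That background depends on abundance: shorter genes under 1 CPM had a median of -6.92. At 1 to 4, 4 to 16 and 16 CPM or more their medians were -0.42, -0.16 and -0.06. In these 3 ranges 16.8%, 19.6% and 20.2% of shorter genes were lower, and 5.36%, 11.9% and 13.2% higher. The machinery list itself was not matched for abundance. Lower were TOP2B, the topoisomerase II of non-dividing cells, at 25.3 ± 3.05 CPM in control (SD, n = 5) and 13.1 ± 1.78 in DOCA (n = 2; log2 change -0.96, adjusted p = 0.00545), and CDK12, a kinase of the elongating polymerase (log2 change -0.98). CCNT2, a cyclin partner of CDK9, had a log2 change of -2.22, SETD2, the histone H3 lysine 36 methylase of transcribed genes, of -1.13, and POLR2B, the second largest subunit of RNA polymerase II, of -0.97. Higher were CDK9 itself, the kinase that releases paused polymerase (log2 change 1.11, adjusted p = 0.00607), INTS1, of the Integrator complex (1.34), and SNRNP70, of the U1 particle that guards against early polyadenylation (log2 change 1.62). SNRNP70 stood at 45.0 ± 6.68 CPM in control (SD, n = 5) and at 138 ± 101 CPM in DOCA (SD, n = 2), so the DOCA libraries lay far apart. In DOCA plus JK07 against DOCA 13 of this list were higher and 2 lower, beside 14.7% and 2.25% of all genes. Any part of these genes in the members' levels was not tested.

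Spans depend on the gene models. Of the 306 members found in RefSeq 282 also spanned 400 kb or more there, and 24 were shorter, among them VCAN (427 kb here, 129 kb in RefSeq), VWF (483 and 139 kb) and MYO7A (417 and 86.4 kb). Over the 282, of which 202 were tested, 41 were lower and 7 higher in DOCA against control, beside 19.7% and 5.73% of all genes. In DOCA plus JK07 against DOCA 30 of the 202 were higher and 0 lower, beside 14.7% and 2.25% of all genes. Another annotated gene lay wholly inside 192 of the 342 members, up to 22 in 1 of them, and 145 overlapped a gene on the other strand. No source used here says whether the authors counted by strand, so reads of such neighbours may be counted with the member. The median implied exon length of expressed members was 9.04 kb, and 31.7% of them exceeded 20 kb, as for RABGAP1L and DST. Members over 20 kb and those at or under it were lower in DOCA against control in 19 of 73 and 35 of 167 tested, beside 19.7% of all genes. Of the 19, 13 were at 0 in both DOCA libraries, and of the 35, 10 were.

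At the threshold of span, the 3 named members just inside were IPO11, an importin (402 kb, 5.56 ± 0.984 CPM in control and 2.77 ± 0.481 in DOCA), TMEM132C (402 kb, 1.40 ± 0.284 and 1.64 ± 2.32 CPM) and CAMKMT, a methylase of calmodulin (404 kb, 1.73 ± 0.484 and 0.898 ± 0.149 CPM). Just outside, the cadherin CDH12 (399.5 kb) and SPAG17, of cilia (399 kb), were at 0 in all libraries, and GUCY1A2, a subunit of the nitric oxide receptor (398 kb), was at 1.72 ± 0.715 CPM in control and 0 in both DOCA libraries.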

How the data were processed

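Nuclear RNA libraries of sorted minipig cardiomyocytes (5 control, 2 DOCA, 3 DOCA plus JK07) were analysed from the deposited tables. The build Sscrofa11.1 and the tools StringTie, SAMtools and edgeR come from the submitters' processing notes, while no source used here gives their versions, the aligner or the annotation. Coverage signal, FPKM and TPM per gene and library are the deposited columns, per the file headers. Estimated counts, deposited by the authors as whole numbers, stood in 1 table that names no genes. Its 35670 lines were assigned to the sorted identifiers, with which 99.9983% of the values shared the other tables' pattern of zeros (62.6061% after a shift of 1 line). All 10 count columns lay closest to their own library's coverage. FPKM entered no result. TPM gave levels between genes and CPM (TMM-scaled) gave levels between libraries.

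The test was edgeR 4.0.16 (R 4.3.3) with TMM, filterByExpr and the quasi-likelihood F test, with all 10 libraries in 1 model, group as its term, and adjustment over all 17251 genes tested at 0.05. The biological coefficient of variation was 0.873. SE is the absolute log2 change divided by the square root of F. With 2 libraries, DOCA adds little to the estimate of spread. The fit was tested on simulated counts. Alternatives were DESeq2 1.42.0, limma 3.58.1 on log2(TPM + 1) and log2(TPM + 0.1), voom with library quality weights, upper quartile scaling, thinned counts, no filter, other spans and libraries left out. Implied exon length is the count times 75, a read length assumed here, divided by coverage.

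The members and gene lists were chosen with earlier results of these data known. Genes were named by rule: the 12 named members highest in control TPM, up to 8 called members with the largest change in each direction per comparison among those above 0 in each group, up to 5 called members at 0 in both DOCA libraries, up to 3 per list by adjusted p, the 5 longest, those beside the span threshold, and ERBB4. Other genes named as examples were chosen after their values were seen. Of all identifiers, 17640 had a symbol in the files and 119 took theirs from the reference. The results of 1 gene list are not reported here.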

Additional observations from a re-analysis of the deposited data

Results flagged for a closer look

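FOXP2, a forkhead transcription factor of 554 kb, read 12.1 CPM in control replicate 2 against 2.94 to 4.11 CPM in the other 4 controls. The gap between that library and the next was 0.873 of the whole range of the group, which is far for 5 samples. It was the only such case among 60 genes checked in the control group, where chance alone would flag about 1 in 20. FOXP2 was at 0 in both DOCA libraries.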

How the results depend on the processing

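In DOCA against control 62 members were called, and 2 with voom and quality weights (VPS13B and LRBA). Without 1 control or JK07 library at a time 45 to 59 were called. Over all genes those fits gave 753 to 1039 higher and 2549 to 3010 lower, beside 988 and 3403 in the main fit. The count of members was 112 at a span of 300 kb or more and 35 at 500 kb or more. Without members at 0 in a whole group 39 were called, a setting chosen after seeing the data. Upper quartile scaling, which moved the median of all genes by 0.24, gave 13 higher and 37 lower, and limma on log2(TPM + 1) 1 and 79. Over all genes these 2 settings gave 1523 higher and 2868 lower, and 246 and 4708. Voom with quality weights gave 67 and 94 over all genes. In DOCA plus JK07 against DOCA the 41 calls became 69 with DESeq2 (63 higher, 6 lower), 90 and 99 with limma on log2(TPM + 1) and log2(TPM + 0.1), 0 with voom, 72 and 24 at 300 and 500 kb, 22 without members at 0, and 32 to 70 without 1 library (62 without replicate 6, 70 without replicate 7). Upper quartile scaling gave 33 higher and 4 lower there. Over all genes the calls of that comparison moved too: DESeq2 gave 3915 higher and 1134 lower of 16963. Limma gave 5269 and 86 of 19586 on log2(TPM + 1), and 5876 and 58 on log2(TPM + 0.1). Voom gave 1 and 4 of 17251, and upper quartile scaling 2095 and 752. DOCA plus JK07 against control had 0, and 1 with DESeq2. The cause of these moves was not tested, beyond the number of genes that each span or exclusion leaves. The difference in medians from shorter genes of like abundance ran from -0.41 to -0.22 in DOCA against control, and without 1 library from 0.23 to 0.41 (without replicate 7) in DOCA plus JK07 against DOCA. With all counts as the total, members' shares were 0.529% in control, 0.287% in DOCA and 0.700% in DOCA plus JK07. Without 1 library at a time CACNA2D3 (0.82) ran from -0.78 to 1.55, RBMS3 (-0.56) from -2.91 to 0.29 and KCNN2 (0.20) from -0.046 to 0.41, each turning sign without replicate 6. KCNN2 was at -0.22 on log2(TPM + 1) and -0.33 on log2(TPM + 0.1). Of 49 pairs of a named gene and a comparison, some had no call in the main fit that could end. Voom with quality weights ended the call in 36, and kept only those of VPS13B and LRBA in DOCA against control. DESeq2 and leaving out ribosomal and mitochondrial genes ended 0. No paired analysis was possible because the groups share no replicate numbers. A member at 0 in both DOCA libraries has no fold change that can be read.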
